A study of Homo sapiens with 3 samples.

Results

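Serine and one-carbon metabolism was represented by 9 enzyme genes: PHGDH, PSAT1 and PSPH of serine synthesis, SHMT1 and MTHFD1 of the cytosolic folate pathway, and SHMT2, MTHFD2, MTHFD1L and ALDH1L2 of its mitochondrial arm. A gene entered through the probe sets that carry its symbol and no other in the platform annotation, averaged per gene, and all 9 were found among the 18417 genes measured. Transcript signals came from C33A cells, a human cervical carcinoma line, in exponential growth in DMEM with 7% serum and without treatment. Each of 3 independent cultures was hybridized to 1 Affymetrix Human Gene 1.0 ST array, so the arrays hold 1 condition and there is no control or contrast. Levels are log2 intensities after Robust Multichip Average normalization, and values after ± are SDs over the 3 arrays.

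De novo serine synthesis branches off glycolysis and turns 3-phosphoglycerate into serine in 3 enzymatic steps. Serine then hands a carbon unit to tetrahydrofolate, the carrier made from the vitamin folate, and is left as glycine. The carbon units carried by folate feed the synthesis of purines, thymidylate and methionine. They run through parallel sets of enzymes in the cytosol and in mitochondria, from which they leave as formate. Proliferating and tumour cells are known for high activity of this network.

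The arrays were similar to each other. Between pairs of arrays Pearson's r over the probe sets was 0.993 to 0.994, and the median SD of a gene was 0.08 log2. The values carry no detection call, and a bound of 6.42 log2 was set instead at the 95th percentile of 459 genes for keratin-associated proteins, beta-defensins and receptors of smell and taste, families with little expression outside specialized tissues (called silent families here). Of the epithelial markers, KRT18 stood above the bound at 7.75 ± 0.11, whereas KRT8, KRT19, CDH1 and EPCAM did not. The leukocyte markers PTPRC (8.82 ± 0.11) and CD68 (6.90 ± 0.06) and the fibroblast markers COL3A1 (11.36 ± 0.06) and COL1A1 (7.24 ± 0.14) were above it, while DCN, LUM, PDGFRB, COL1A2, CD14, CD3E and all 4 endothelial markers were not. The arrays hold RNA of 1 cultured cell line and not of a tissue with several cell types. What gave the signals of the leukocyte and fibroblast markers was not tested.

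Most of these enzyme genes gave a high signal. Of the 9 genes, 8 were above the silent-family bound, against 56.4% of all genes measured. The top decile, which starts at 9.83 log2, held 5 of them (PHGDH, MTHFD1, MTHFD2, PSAT1 and SHMT2), against 10% of all genes by construction. PSPH, MTHFD1L and SHMT1 lay in decile 9, and ALDH1L2 in decile 1. The median over the 9 genes was 10.40 log2, against 6.91 over all genes. On each array taken alone, every one of the 9 genes fell in the same decile. A signal summarizes the probes of a probe set and does not grow with transcript length, but it also depends on the sequence of the probes, so that distances between genes are approximate and are not given as folds.

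**Figure D1:**
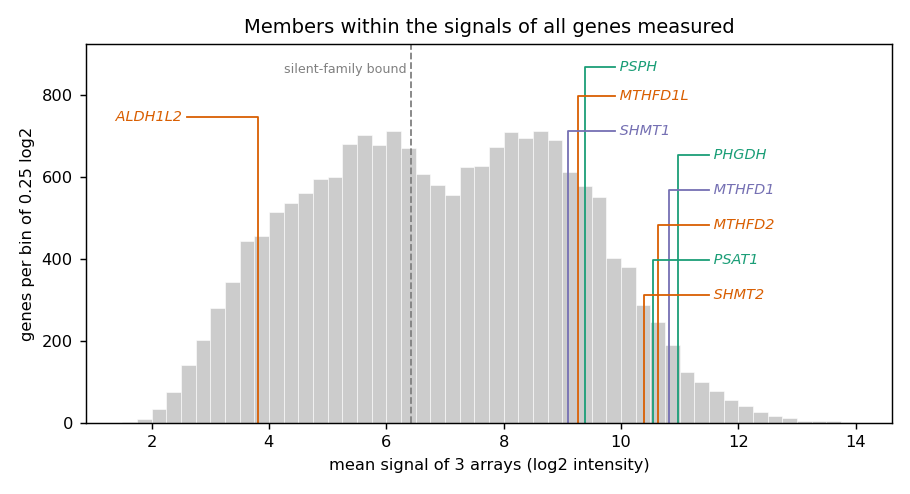
Number of genes per bin of 0.25 log2 (y axis) by mean signal of the 3 arrays (x axis, log2 intensity), with the 9 enzyme genes marked and coloured by pathway arm and the bound of the silent families dashed. ALDH1L2 lies left of the bound at 3.81, and the other 8 genes lie right of it, from SHMT1 at 9.09 to PHGDH at 10.98.

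All 3 genes of serine synthesis were above the bound, and those of the first and second step were in the top decile. PHGDH, which oxidizes 3-phosphoglycerate in the first step, was at 10.89, 11.00 and 11.03 log2 on arrays 1, 2 and 3. Its mean of 10.98 ± 0.08 (SD, n = 3) was the highest of the 9 genes and placed it at rank 481 from the top of all genes. PSAT1, the aminotransferase of the second step, was at 10.60, 10.64 and 10.40 with a mean of 10.55 ± 0.13 (SD, n = 3). Its array 3 value stood apart from the other two, and PSAT1 had the widest range of the 9 genes, 0.24 log2. PSPH, the phosphatase that releases serine, was at 9.31, 9.39 and 9.44, with a mean of 9.38 ± 0.06 (SD, n = 3). PSPH was thus the lowest of the 3 on every array. The difference from PHGDH was 1.60 ± 0.02 log2 and that from PSAT1 1.17 ± 0.18 (SD, n = 3 arrays), with no overlap of the values.

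PHGDH is the only one of the 9 genes on the study's list of CHD8 target genes, and absence from that list does not show absence of CHD8. The share of all measured genes on that list was not computed, so this count does not set the 9 genes apart. The promoter windows of PHGDH and PSAT1 are shown side by side, as the gene on the list and the next step of its pathway that is not. Both run from 250 bases before to 50 after the annotated start (RefSeq, GRCh38.p14, chr1:119711684-119711983, strand +, and chr9:78296875-78297174, strand +), and capitals mark CCAAT on either strand.
PHGDH: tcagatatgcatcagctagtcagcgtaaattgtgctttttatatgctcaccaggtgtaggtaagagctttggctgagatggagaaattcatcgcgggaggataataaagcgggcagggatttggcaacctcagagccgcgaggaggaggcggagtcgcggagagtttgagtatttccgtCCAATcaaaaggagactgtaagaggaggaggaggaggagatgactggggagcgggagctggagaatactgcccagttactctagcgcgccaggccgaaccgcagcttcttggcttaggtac
PSAT1: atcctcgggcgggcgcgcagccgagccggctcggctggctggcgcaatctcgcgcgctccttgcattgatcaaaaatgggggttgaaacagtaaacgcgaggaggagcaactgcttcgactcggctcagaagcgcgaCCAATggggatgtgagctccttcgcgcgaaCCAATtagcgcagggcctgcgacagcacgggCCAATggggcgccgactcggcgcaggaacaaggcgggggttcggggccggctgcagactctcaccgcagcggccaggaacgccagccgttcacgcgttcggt
PHGDH held 1 CCAAT, 71 bases before the start, and PSAT1 held 3, which begin 113, 83 and 52 bases before it. Of the 9 genes, 6 have a window in the table (PHGDH, PSAT1, SHMT1, MTHFD1, MTHFD2 and MTHFD1L), and all 6 held CCAAT, the sequence of the box that the factor NF-Y binds, or its complement ATTGG. Among measured genes with a window, 42.2% held it, and 44.0% of those in the top decile did. The words TTTCCCGC, TTTCGCGC, TTTGCCGC and TTTGGCGC, which are exact forms of the E2F motif, were searched on both strands. They were in none of the 9 windows of these 6 genes, against 3.31% of all 35116 windows. With so few windows and so low a share, finding none does not set these genes apart. Other forms of the motif were not searched, so the windows are not shown to lack E2F sites. Such matches describe the letters of a window and show no binding.

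Both serine hydroxymethyltransferase genes were above the bound, the mitochondrial one in the top decile. SHMT2, the mitochondrial serine hydroxymethyltransferase, which cleaves serine to glycine and loads the carbon on folate, was at 10.39, 10.36 and 10.45 log2 on arrays 1, 2 and 3. SHMT1, its cytosolic counterpart, was at 9.08, 9.11 and 9.08, the narrowest range of the 9 genes, 0.025 log2. The mitochondrial gene was the higher on each array, and the values did not overlap. The difference SHMT2 minus SHMT1 was 1.31 ± 0.06 log2 (SD, n = 3 arrays). An exact sign-flip test of 3 arrays cannot go below p = 0.25, so no p-value is attached to this or to other differences between genes.

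The later folate steps did not share this order. MTHFD1, a cytosolic protein that joins dehydrogenase, cyclohydrolase and formyltetrahydrofolate synthetase activities in 1 chain, was at 10.79, 10.87 and 10.82 log2, with a mean of 10.82 ± 0.04 (SD, n = 3). In mitochondria, MTHFD2 provides the dehydrogenase and cyclohydrolase steps and was at 10.67, 10.53 and 10.70, with a mean of 10.63 ± 0.09 (SD, n = 3). MTHFD1L, the mitochondrial synthetase that releases formate, was at 9.23, 9.22 and 9.34, with a mean of 9.26 ± 0.07 (SD, n = 3). MTHFD1 was therefore the highest of the 3 on each array. The difference MTHFD1L minus MTHFD1 was -1.56 ± 0.08 log2 (SD, n = 3 arrays), and it was -3.42 when probe sets that carry several gene symbols were admitted. The difference MTHFD2 minus MTHFD1 was -0.19 ± 0.12 and turned to 0.072 when the higher probe set of MTHFD2 was used alone, so the order of these 2 genes was not settled.

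MTHFD1 and MTHFD1L are shown as cytosolic and mitochondrial genes of the synthetase step that also differ in the letters of their windows (RefSeq, GRCh38.p14, chr14:64388103-64388402, strand +, and chr6:150866236-150866535, strand +, the first of 4 windows of that gene). Capitals mark the word CCAAT as above, the E-box word CACGTG, which MYC and its partner MAX bind, and the word TGATGNAA of the composite element that ATF4 and its partners bind, each on either strand.
MTHFD1: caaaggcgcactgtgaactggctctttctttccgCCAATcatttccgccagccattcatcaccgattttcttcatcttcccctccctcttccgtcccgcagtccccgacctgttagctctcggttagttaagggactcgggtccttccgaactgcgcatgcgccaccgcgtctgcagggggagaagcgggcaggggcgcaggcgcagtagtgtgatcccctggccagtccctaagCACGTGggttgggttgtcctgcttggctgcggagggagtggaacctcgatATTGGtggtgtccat
MTHFD1L: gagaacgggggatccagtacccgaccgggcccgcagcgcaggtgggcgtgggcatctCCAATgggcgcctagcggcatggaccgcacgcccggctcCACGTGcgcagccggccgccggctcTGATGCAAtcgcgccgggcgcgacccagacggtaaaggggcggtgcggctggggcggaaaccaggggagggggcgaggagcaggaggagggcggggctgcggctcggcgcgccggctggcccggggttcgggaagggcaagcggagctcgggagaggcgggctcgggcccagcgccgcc
CACGTG was in both windows, 15 bases before the start in MTHFD1 and 154 bases before it in MTHFD1L, and 7.26% of all windows held it. The windows of PHGDH, PSAT1, MTHFD2 and SHMT1 did not hold CACGTG, so the printed pair does not stand for the other genes. TGATGNAA was in the MTHFD1L window, 129 bases before the start, and in no window of the other 5 genes, while 3.62% of all windows held it. Other forms of CACGTG and TGATGNAA, and bases outside the windows, were not searched. The genes are therefore not shown to lack MYC or ATF4 sites. Of the other 3 windows of MTHFD1L, those 2 that overlap the printed one held the same 3 words and the other held none of them. No marked word overlapped another in these windows.

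ALDH1L2 stood apart from the other 8 genes. This mitochondrial enzyme oxidizes formyl-tetrahydrofolate to carbon dioxide, a step that forms NADPH. Arrays 1, 2 and 3 gave it 3.82, 3.77 and 3.83 log2, with a mean of 3.81 ± 0.03 (SD, n = 3). Its mean minus the bound was -2.62 log2, and it lay below the 4.05 median of the silent families. SHMT1, the next gene in the order, was above the bound on every array. ALDH1L1, the cytosolic enzyme of the same reaction, was at 5.85, 5.56 and 5.79, also not above the bound. A signal below the bound is a low rank and not a measured absence of transcript.

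**Figure D2:**
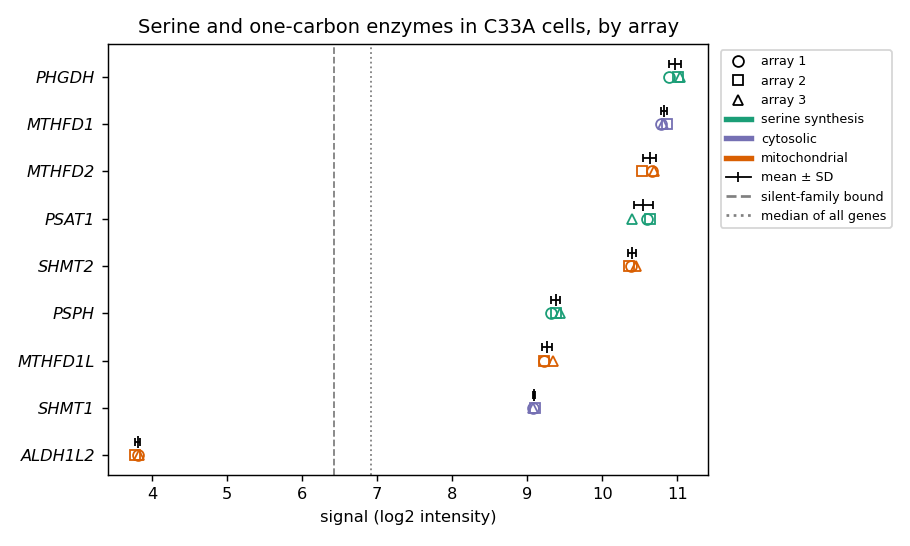
Signal of each enzyme gene (x axis, log2 intensity) on arrays 1, 2 and 3 (circles, squares and triangles), with the mean ± SD above each row, colours for the pathway arm, and lines for the silent-family bound and the median of all genes. The 9 genes form a group of 5 from 10.40 to 10.98, a group of 3 from 9.09 to 9.38, and ALDH1L2 at 3.81.

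In order of mean signal the genes were PHGDH, MTHFD1, MTHFD2, PSAT1, SHMT2, PSPH, MTHFD1L, SHMT1 and ALDH1L2. Of the 36 pairs of genes, 34 kept their order on all 3 arrays. The exceptions both involved PSAT1, which differed from MTHFD2 by 0.08 ± 0.20 log2 and from SHMT2 by 0.15 ± 0.18 (SD, n = 3 arrays), in each case less than the spread. PSPH and MTHFD1L had overlapping ranges, although PSPH was the higher on each array, by 0.12 ± 0.04. The other neighbours did not overlap, with differences of 0.15 ± 0.06 for PHGDH and MTHFD1, 0.19 ± 0.12 for MTHFD1 and MTHFD2, and 0.17 ± 0.07 for MTHFD1L and SHMT1. A wider gap of 1.02 ± 0.05 lay between SHMT2 and PSPH. All these SDs are over arrays and leave out the dependence on probes. Probe sets of 1 gene differed by 0.64 log2 for PSPH and 0.53 for MTHFD2. The order of neighbours closer than that was not settled.

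The spread over the cultures differed among the genes. The SD was above the median SD of genes of the same decile for 6 of the 9 genes, against 50% of all genes. That count fell to 5 without array 1 or array 2 and to 4 without array 3 or with the highest probe set of a gene, so it does not set these genes apart from the share of all genes. PSAT1 had 2.98 times the median SD of its decile, MTHFD2 1.97 times and PHGDH 1.79 times. The SD of PSAT1 went from 0.130 to 0.029 without array 3. That of MTHFD2 went from 0.086 to 0.021 without array 2, and that of PHGDH from 0.078 to 0.021 without array 1. Leaving out the most distant of 3 values always lowers an SD, so these falls do not single out an array. The SDs of SHMT1 and ALDH1L2 were 0.28 and 0.22 times the median of their deciles, and without array 2 the values of SHMT1 were identical and the SD of ALDH1L2 went from 0.030 to 0.0069. Array 3 gave the highest value for 6 of the genes and array 2 for the other 3, but the median over the 9 genes moved little, from 10.36 to 10.40 log2 between arrays. All cultures share 1 condition, and with 3 values per gene these SDs are themselves imprecise.

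**Figure D3:**
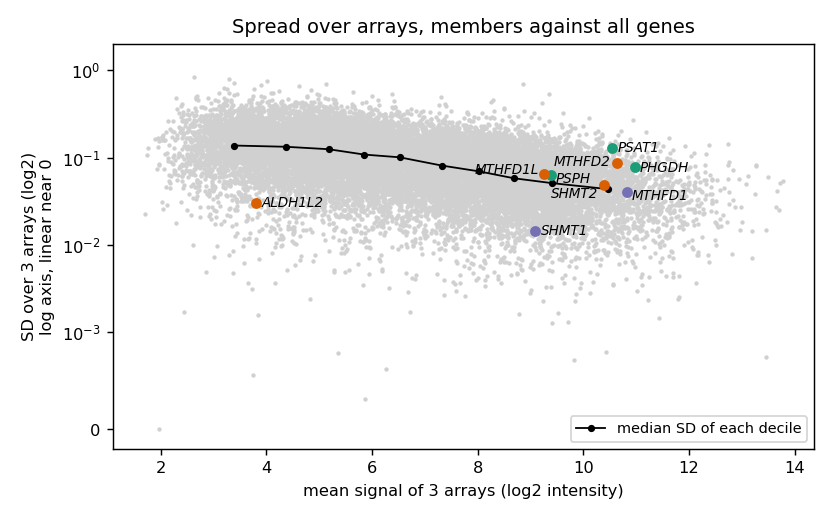
SD over the 3 arrays (y axis, log2 units on an axis that is logarithmic and turns linear near 0) against mean signal (x axis, log2 intensity) for all genes in grey, the median SD of each decile as a black line and the 9 enzyme genes in the colours of their pathway arms. PSAT1 lies highest above the line, at an SD of 0.13, and SHMT1 and ALDH1L2 lie below it.

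Genes with several probe sets showed how far a level depends on the probes. The probe sets of PSPH gave 9.70 ± 0.05 and 9.06 ± 0.09 log2, a difference of 0.64 ± 0.07 (SD, n = 3 arrays). Those of MTHFD2 gave 10.89 ± 0.04 and 10.37 ± 0.14, a difference of 0.53 ± 0.11. A probe set shared by PHGDH and MZT2B, which was left out, gave 10.81 ± 0.17, against 10.98 ± 0.08 for PHGDH alone. For MTHFD1L, 4 further probe sets that also carry 3 uncharacterized loci gave 6.91 to 6.98, with identical values for a pair of them, against 9.26 for the probe set of MTHFD1L alone. RefSeq names 7 pseudogenes after MTHFD2, 4 after PSAT1 and 1 each after PSPH, SHMT1 and MTHFD1, and none after the other 4 genes. Whether these copies share in the signals was not tested, so the levels of these 5 genes are uncertain to that extent.

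**Figure D4:**
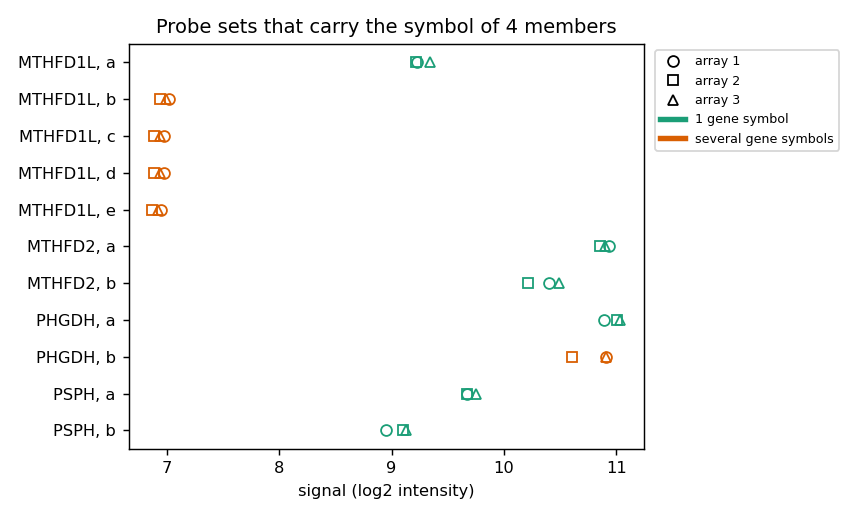
Signal (x axis, log2 intensity) of every probe set that carries the symbol of MTHFD1L, MTHFD2, PHGDH or PSPH (rows, lettered within a gene), on arrays 1, 2 and 3. Green probe sets carry 1 gene symbol and were used, while orange ones carry several and were not. The 4 shared MTHFD1L probe sets lie near 6.9 and the unshared one at 9.26.

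The genes around these enzymes were read from 6 lists with 53 genes, of which 46 were measured. Of these, 36 were above the bound and 15 in the top decile, against 56.4% and 10% of all genes, with a median of 9.08 log2 against 6.91. The counts of single lists below stand beside the same 56.4% and 10%, and with 5 to 12 genes a list they are descriptions. MTHFS, GCSH and CBS have no probe set of their own, and the remaining listed genes are not analysed here.

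Genes of purine synthesis, a pathway that draws on the carbon units, had high signals, though not every listed enzyme uses these units itself. All 8 measured genes of purine synthesis, which uses formyl-tetrahydrofolate, were above the bound and 6 were in the top decile, from PRPS2 at 9.58 ± 0.08 log2 to PAICS, which acts in the middle of the pathway, at 11.30 ± 0.04 (SD, n = 3). Among the 8 other folate-cycle enzymes measured, 6 were above the bound. The highest was TYMS, thymidylate synthase, at 10.95 ± 0.11 (SD, n = 3), the only one of them in the top decile. ALDH1L1 at 5.73 ± 0.15 and MTHFD2L, the mitochondrial homologue of MTHFD2, at 6.04, 6.11 and 5.86 on the 3 arrays were not above the bound. No difference from MTHFD2 is given, since MTHFD2L was not above the bound.

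Transporters that supply serine and folate were also measured. All 5 serine and neutral amino acid transporters were above the bound and 3 were in the top decile, from SLC1A4 at 7.63 ± 0.07 log2 to SLC38A2 at 12.40 ± 0.04 (SD, n = 3). SFXN1, which carries serine into mitochondria and was singled out after its values were seen, was at 11.22 ± 0.002. Of 6 folate transport genes, 3 were above the bound, no more than the 56.4% of all genes, led by the mitochondrial folate carrier SLC25A32 at 10.13 ± 0.07 (SD, n = 3). The folate receptors FOLR1, FOLR2 and FOLR3 were at 5.66 ± 0.15, 4.62 ± 0.03 and 5.96 ± 0.12, none of them above the bound.

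Among 7 measured genes of serine and glycine use, 6 were above the bound and 2 in the top decile. The highest was DLD, the dehydrogenase shared by the glycine cleavage system and other complexes, at 10.99 ± 0.01 log2, and the lowest AMT, the aminomethyltransferase of the glycine cleavage system, at 5.87 ± 0.08 (SD, n = 3), not above the bound. GLDC, the decarboxylase of the same system, singled out after its values were seen, was at 9.34 ± 0.01. Of 12 genes of the methionine cycle and transsulfuration, 8 were above the bound, a share near the 56.4% of all genes. MAT2A, which makes S-adenosylmethionine in most tissues, was the highest at 11.79 ± 0.02 (SD, n = 3). The genes not above the bound were MAT1A (5.28 ± 0.07), GNMT (5.38 ± 0.04), BHMT (4.59 ± 0.18) and BHMT2 (5.08 ± 0.25). These are known mainly from liver, but whether liver genes of the list as a set had low signals was not tested.

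**Figure D5:**
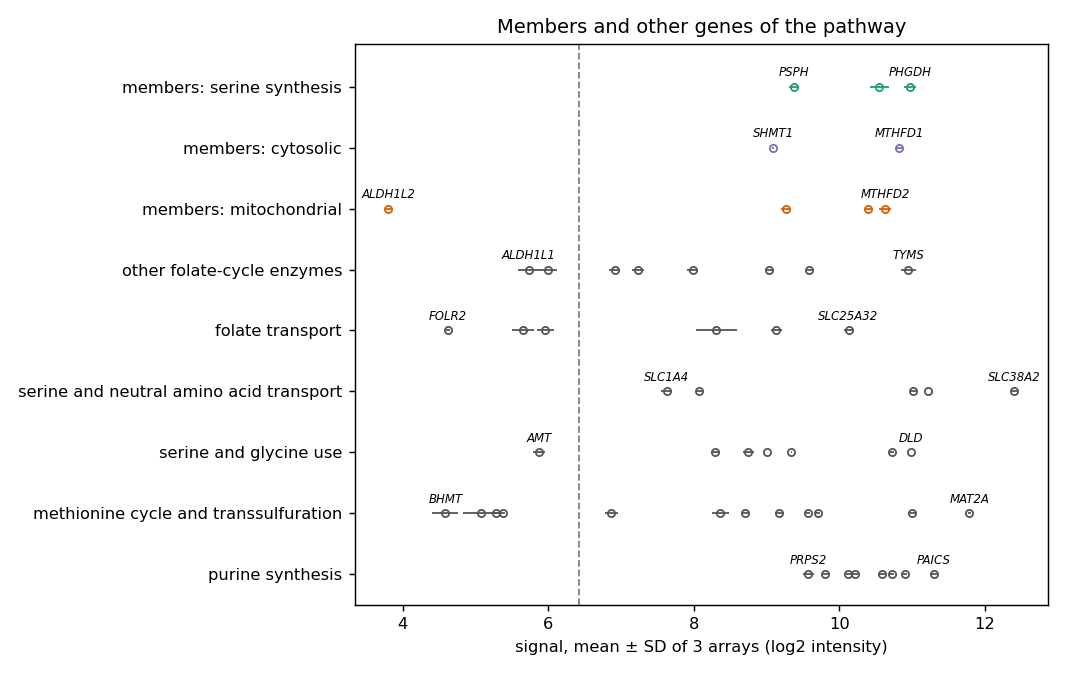
Signal (x axis, log2 intensity, mean ± SD of 3 arrays) of each measured gene of the 9 enzymes, by pathway arm and in colour, and of 6 lists of other genes of the pathway in grey, with the lowest and highest gene of each row named and the silent-family bound dashed. Purine synthesis and the serine transporters lie right of the bound, while the other 4 lists span it.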

How the data were processed

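RNA of 3 C33A cultures was measured on Affymetrix Human Gene 1.0 ST arrays. The authors normalized the arrays by Robust Multichip Average and processed them with oneChannelGUI, and deposited 1 log2 intensity per probe set and array. Software versions and genome build: not given in the sources used here. Normalization gives the arrays 1 distribution, so a change common to all genes cannot be seen. Precision is limited by the small number of arrays. Of 33297 probe sets, 19460 with 1 gene symbol were used, 1754 with several were set aside, and 12083 carry no symbol. Symbols were updated through Entrez identifiers (18392 of 18417 genes found in RefSeq, GRCh38.p14), and 769 genes have more than 1 probe set, which were averaged. Genes were ranked by mean signal into 10 deciles. The genes, lists and markers were chosen with earlier results of these data known. Named genes are the 9 enzymes, the highest and lowest gene of each list, ALDH1L1, MTHFD2L and genes not above the bound, beside the cell type markers and, named after their values were seen, SFXN1 and GLDC. No gene was named for a similar pattern, since 3 arrays of 1 condition give none. Functions were tested on simulated data. Alternatives left out each array, took the highest probe set, admitted shared probe sets, normalized again, changed the bound, or changed the genes ranked. Python 3.11.15, NumPy 2.4.6, pandas 2.3.3 and matplotlib 3.10.9 were used.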

Additional observations from a re-analysis of the deposited data

How the results depend on the processing

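Of 106 recomputed values, 100 moved by less than 1 SD or, for counts, stayed within 1.5 times. With the highest probe set of a gene in place of the mean, MTHFD2 minus MTHFD1 turned from -0.19 to 0.072 log2, and PSPH and MTHFD2 rose to 9.70 and 10.89, since the lower probe set of each no longer counts. With probe sets of several symbols admitted, MTHFD1L minus MTHFD1 moved from -1.56 to -3.42, because 4 shared probe sets near 6.9 enter the mean of MTHFD1L (7.41), and PHGDH came to 10.89. Leaving out any 1 array shifted a level by at most 0.07 log2. The counts were 8 genes above the bound and 5 in the top decile in each alternative run for them. No paired analysis was possible because there is 1 group.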
